A study of Homo sapiens with 12 samples.

Results

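Transcript levels of 6 stress-response genes, SESN1, SESN3, TP53INP1, SPATA18, PLK2 and TXNIP, were examined in LNCaP, an androgen-responsive line of human prostate cancer cells. Their transcript clusters on the array, in this order, are 17022362, 16743432, 17079317, 16966685, 16996433 and 17117443. They are 6 of the 11105 genes tested and of the 14812 genes with a name here. The genes had been picked from earlier results on these same arrays. Those results were the difference between full and charcoal serum in vehicle-treated cells, and the differences between each taxane and vehicle, with TXNIP chosen for docetaxel. Values from those comparisons are therefore given as a description with no test. Tests were run on the serum difference within taxane-treated cells and on the comparison of the drugs with each other. The comparison of the drugs equals the cabazitaxel difference from vehicle minus the docetaxel difference from vehicle. The choice had used both of these, so this comparison is no independent test of the members. The taxane arrays had entered the choice through the comparisons with vehicle, so these tests are not independent of it.

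The 12 Affymetrix Human Gene 2.0 ST arrays covered 6 groups of 2. Cells in full serum received 1 nM cabazitaxel, 1 nM docetaxel or vehicle (ethanol) for 16 h, and cells in serum stripped with charcoal and dextran received the same 3 treatments. Charcoal stripping removes steroid hormones. Cabazitaxel and docetaxel are taxanes, which stabilise microtubules and so hinder the mitotic spindle. They differ at positions where docetaxel has hydroxyl groups and cabazitaxel methoxy groups. All groups, the vehicle groups included, were LNCaP cells carrying the control plasmid MSCV-LMP, and the cDNA was amplified before labelling. The labels do not say that the replicates were separate cultures, so each p-value covers only array-to-array spread, which may be technical. These were bulk samples, in which fewer cells of a kind and less RNA per cell cannot be told apart.

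The sestrins are stress-induced proteins that hold back mTORC1, the kinase complex that promotes growth when amino acids and growth signals are present. They bind GATOR2, an activator of that pathway, and they also aid antioxidant defence. SESN1 is a classic target of p53, and SESN3 is a target of the FOXO transcription factors, which growth factor signalling through AKT keeps out of the nucleus. TP53INP1 is a p53-induced nuclear protein with roles in cell death and autophagy. SPATA18, also called MIEAP, is a p53 target that acts in mitochondrial quality control. PLK2, a polo-like kinase induced by p53, acts in centriole duplication and stress responses. TXNIP is an alpha-arrestin that binds thioredoxin and limits glucose uptake, and its transcription follows glucose through the factor MondoA.

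Promoter sequence from RefSeq, on build GRCh38.p14, was at hand for 5 of the 6 genes, SESN1, SESN3, SPATA18, PLK2 and TXNIP. The p53 half-site, the FOXO core GTAAACA and a pair of carbohydrate-response-like boxes, CACGNG and CNCGNG with any 5 bases between, were searched on both strands in the 250 bases before each listed start. The windows below are the 150 bases before a start of SESN1, SESN3, PLK2 and TXNIP, written 5′ to 3′ with each match in capitals. PLK2 was the gene of smallest serum difference. Where a gene had several listed starts, the one with a match is shown.
SESN1, chr6:109008989-109009138, minus strand: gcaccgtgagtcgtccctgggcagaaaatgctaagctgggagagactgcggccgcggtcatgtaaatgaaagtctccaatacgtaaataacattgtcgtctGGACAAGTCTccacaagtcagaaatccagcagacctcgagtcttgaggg
SESN3, chr11:95232476-95232625, minus strand: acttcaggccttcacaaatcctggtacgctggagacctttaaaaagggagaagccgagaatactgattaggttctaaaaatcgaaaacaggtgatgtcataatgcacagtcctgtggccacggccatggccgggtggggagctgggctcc
PLK2, chr5:58460087-58460236, minus strand: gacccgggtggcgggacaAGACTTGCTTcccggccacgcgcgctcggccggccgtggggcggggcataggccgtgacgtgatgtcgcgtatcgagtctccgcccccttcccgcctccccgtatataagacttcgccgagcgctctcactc
TXNIP, chr1:145996580-145996729, minus strand: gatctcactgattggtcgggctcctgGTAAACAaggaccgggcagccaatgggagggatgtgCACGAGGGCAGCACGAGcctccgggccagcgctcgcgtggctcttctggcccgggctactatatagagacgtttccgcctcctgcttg
The SESN1 window, before the third of its 3 listed starts, held the p53 half-site GGACAAGTCT. PLK2 held the p53 half-site AGACTTGCTT. TXNIP, at the first of its 2 listed starts, held the FOXO core and the paired boxes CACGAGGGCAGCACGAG. None of these matches overlapped another. No match was found for SESN3 or SPATA18, before the other listed starts of SESN1, or before the other listed start of TXNIP. A p53 half-site was present in 5.57% of 35116 windows of the same 250 bases, the FOXO core in 2.98% and the paired boxes in 0.424%. Counted per gene, at any listed start, the shares were 6.8%, 3.66% and 0.527% of 27305 genes. A match is only a run of letters, and the arrays do not tell the starts of a gene apart.

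Every one of the 6 genes lay above the median of all values (22.31, log2 4.48) in all 12 arrays. The mean log2 intensity was 8.63 for TP53INP1, 7.92 for TXNIP, 7.43 for SESN1, 6.81 for SESN3, 5.47 for PLK2 and 5.18 for SPATA18. These place the genes in the order of their probe signal, which is not a comparison of transcript amounts between genes. SPATA18 and PLK2 were the weakest of the 6, with 50.4% and 60% of tested genes at a lower mean. The deposited values stand on a floor, with 57.5% of all values under 24, so differences in weak genes are compressed. Across genes, the correlation between the 2 replicates of a group was at least 0.986. Of the androgen-induced genes used as a check of the serum labels, 5 of 5 tested were called higher in full serum under the taxanes, with KLK2, a prostate kallikrein, 1.40 higher on the log2 scale (limma adjusted p 0.000105). Of 11 luminal prostate markers 7 were tested, and KLK3, the gene for prostate-specific antigen, ranged from 8.90 to 10.52, while the basal keratins lay near the median of all values, with KRT5 between 4.29 and 4.39, KRT14 between 4.41 and 4.68 and KRT15 between 4.41 and 4.70. The leukocyte markers CD14 and LYZ stayed at or below 4.45 in every array. Of 9 listed fibroblast markers 5 had a name here. FN1 was strong, between 8.62 and 9.43, while VIM ranged from 4.85 to 5.29 and THY1 from 4.48 to 4.82. DCN and LUM stayed at or below 4.45.

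The first comparison asked whether serum set the level of these genes in cells that had received a taxane. SESN1, SESN3 and TP53INP1 were lower in full serum than in charcoal serum, each by over 0.6 on the log2 scale. TXNIP and SPATA18 had smaller differences in the same direction that did not pass, and PLK2 had the smallest. With limma and Benjamini-Hochberg adjustment over all genes, 3 of the 6 were called, all lower, where 1.07% of the 11105 genes were called and 0.486% were called lower. The median difference of the 6 genes was -0.44, against 0.0029 over all genes. Members were picked from the serum difference in vehicle-treated cells and from the differences between each taxane and vehicle, which used the taxane arrays. SESN1, SESN3, TP53INP1 and TXNIP were lower in full serum in vehicle-treated cells too. These counts are therefore not independent evidence about the 6 genes.

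SESN1 had intensities of 134 and 141 with cabazitaxel and 143 and 137 with docetaxel in full serum, against 222 and 241 with cabazitaxel and 218 and 268 with docetaxel in charcoal serum. Every full-serum array lay well below every charcoal array. The mean log2 intensity was 7.12 ± 0.042 in full serum and 7.89 ± 0.14 in charcoal serum (SD, n = 4 arrays each). The difference was -0.77 (SE 0.068, 95% interval -0.92 to -0.62), so the level in full serum was 0.587 of that in charcoal serum, with a limma adjusted p of 0.000213.

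SESN3, the FOXO-linked sestrin, had intensities of 82.3 and 98.6 with cabazitaxel and 96.2 and 85.5 with docetaxel in full serum, against 141 and 135 with cabazitaxel and 146 and 164 with docetaxel in charcoal serum. Again no full-serum array reached a charcoal array. The means were 6.50 ± 0.13 in full serum and 7.19 ± 0.12 in charcoal serum (SD, n = 4 arrays each). The log2 difference was -0.69 (SE 0.079, 95% interval -0.87 to -0.52), a ratio of 0.618, with a limma adjusted p of 0.00118. With the methods' t-test SESN3 had an adjusted p of 0.055 and was not called.

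TP53INP1 had intensities of 345 and 347 with cabazitaxel and 338 and 345 with docetaxel in full serum, against 482 and 560.5 with cabazitaxel and 511 and 548 with docetaxel in charcoal serum. The 4 full-serum arrays were almost level with each other, and the charcoal arrays were all higher and more spread out. The means were 8.42 ± 0.017 in full serum and 9.04 ± 0.099 in charcoal serum (SD, n = 4 arrays each). Its log2 difference was -0.61 (SE 0.07, 95% interval -0.76 to -0.46), a ratio of 0.655, with a limma adjusted p of 0.00118.

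TXNIP had intensities of 234 and 227 with cabazitaxel and 252 and 220 with docetaxel in full serum, against 256 and 286 with cabazitaxel and 288 and 294.5 with docetaxel in charcoal serum. The groups did not overlap, but the highest full-serum array came close to the lowest charcoal array. The log2 difference was -0.27 (SE 0.06, 95% interval -0.40 to -0.14), with a limma adjusted p of 0.0647. It passed only after quantile normalization, with an adjusted p of 0.0274. A second transcript cluster of TXNIP, which correlated with the first at r = 0.82 over the 12 arrays, had a difference of -0.21.

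SPATA18 had intensities of 34.6 and 32.8 with cabazitaxel and 35.5 and 37.2 with docetaxel in full serum, against 35.6 and 39.65 with cabazitaxel and 41.9 and 42.4 with docetaxel in charcoal serum. The serum groups overlapped, since 1 docetaxel array in full serum exceeded 1 cabazitaxel array in charcoal serum. The log2 difference was -0.19 (95% interval -0.31 to -0.057), with a limma adjusted p of 0.236, and -0.32 with an assumed offset of 16 subtracted (adjusted p 0.356). PLK2 had intensities of 46.5 and 48.7 with cabazitaxel and 47.4 and 42.7 with docetaxel in full serum, against 44.9 and 44.9 with cabazitaxel and 45.8 and 45.7 with docetaxel in charcoal serum. The full-serum arrays lay on both sides of the charcoal arrays. The log2 difference was 0.03 (95% interval -0.09 to 0.15, limma adjusted p 0.924), and its sign turned when 1 array was left out. Of the 6 genes, 4 did not overlap between the sera over the 8 taxane arrays, where 6.63% of all genes did not overlap.

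**Figure D1:**
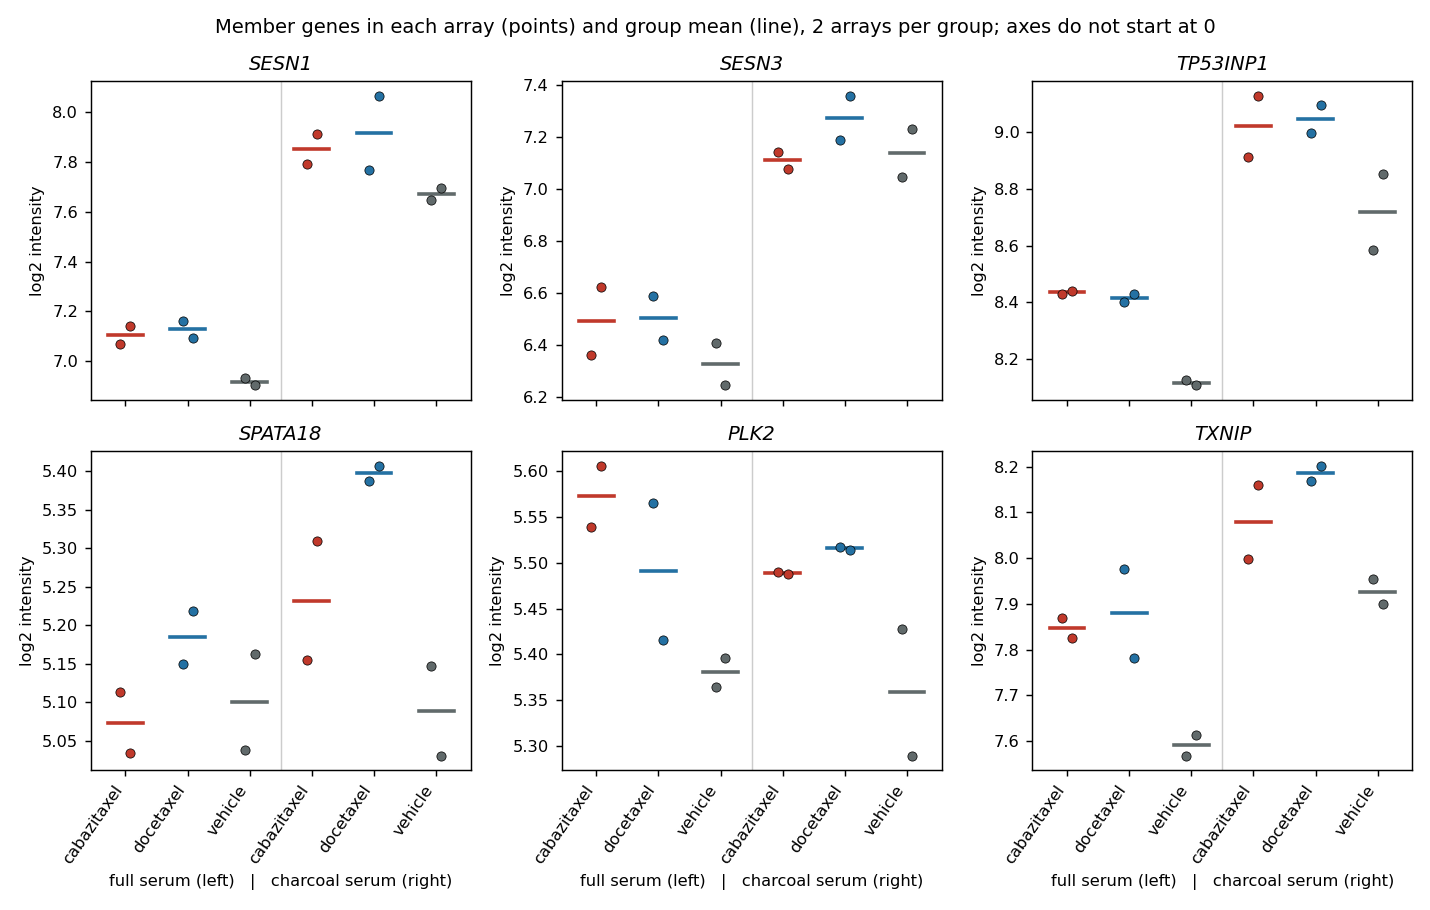
Log2 intensity (vertical axes, which do not start at 0) of the 6 genes in each of the 12 arrays, with full serum on the left and charcoal serum on the right of each panel; points are arrays and lines are the means of 2 arrays. SESN1, SESN3, TP53INP1 and TXNIP have no overlap between the sera under any of the 3 treatments. SPATA18 has none under cabazitaxel or docetaxel but overlaps under vehicle, and PLK2 has none under cabazitaxel alone. With 2 arrays against 2, 34.9% of all genes do not overlap under cabazitaxel, 39.6% under docetaxel and 35.5% under vehicle.

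The serum difference was then read under each drug alone, with 2 arrays against 2. SESN1 differed by -0.75 under cabazitaxel (limma adjusted p 0.00728) and by -0.79 under docetaxel (limma adjusted p 0.00534). SESN3 differed by -0.62 under cabazitaxel (limma adjusted p 0.0475) and by -0.77 under docetaxel (limma adjusted p 0.0166). TP53INP1 differed by -0.59 under cabazitaxel (limma adjusted p 0.036) and by -0.63 under docetaxel (limma adjusted p 0.0213). These were 3 of 6 members called under either drug, where 0.396% of all genes were called under cabazitaxel and 0.315% under docetaxel. Of the 11105 genes, 11, or 0.0991%, were called lower under each drug alone, and 3 of those 11 were SESN1, SESN3 and TP53INP1. The serum difference under a drug follows from the vehicle serum difference and the drug's differences from vehicle, which were used to pick the genes. These counts are therefore not independent evidence about the 6 genes.

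Such calls from 2 arrays against 2 were fragile. Leaving out any of the 4 arrays compared kept SESN1 called in 1 of 4 fits under cabazitaxel and in 2 of 4 under docetaxel. For SESN3 the call remained in 0 of 4 fits under cabazitaxel and in 1 of 4 under docetaxel, and for TP53INP1 in 0 of 4 under either drug. The differences themselves stayed between -0.94 and -0.48 in those fits.

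TXNIP differed by -0.23 under cabazitaxel (limma adjusted p 0.568) and by -0.31 under docetaxel (limma adjusted p 0.244). SPATA18 differed by -0.16 under cabazitaxel and by -0.21 under docetaxel, and PLK2 by 0.08 under cabazitaxel and by -0.03 under docetaxel. None of these 3 genes passed under either drug alone. The serum difference under cabazitaxel minus that under docetaxel was 0.04 for SESN1 (95% interval -0.26 to 0.34), 0.15 for SESN3 (-0.19 to 0.50) and 0.05 for TP53INP1 (-0.26 to 0.35). For SPATA18 it was 0.05 (-0.20 to 0.31), for PLK2 0.11 (-0.13 to 0.35) and for TXNIP 0.08 (-0.19 to 0.34). Limma called 0 of the 11105 genes in this interaction, 0% of all, with 402 genes (3.62%) at an unadjusted p under 0.05. These intervals are wide, and a difference between the drugs of up to 0.50 for SESN3 lies within them.

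**Figure D2:**
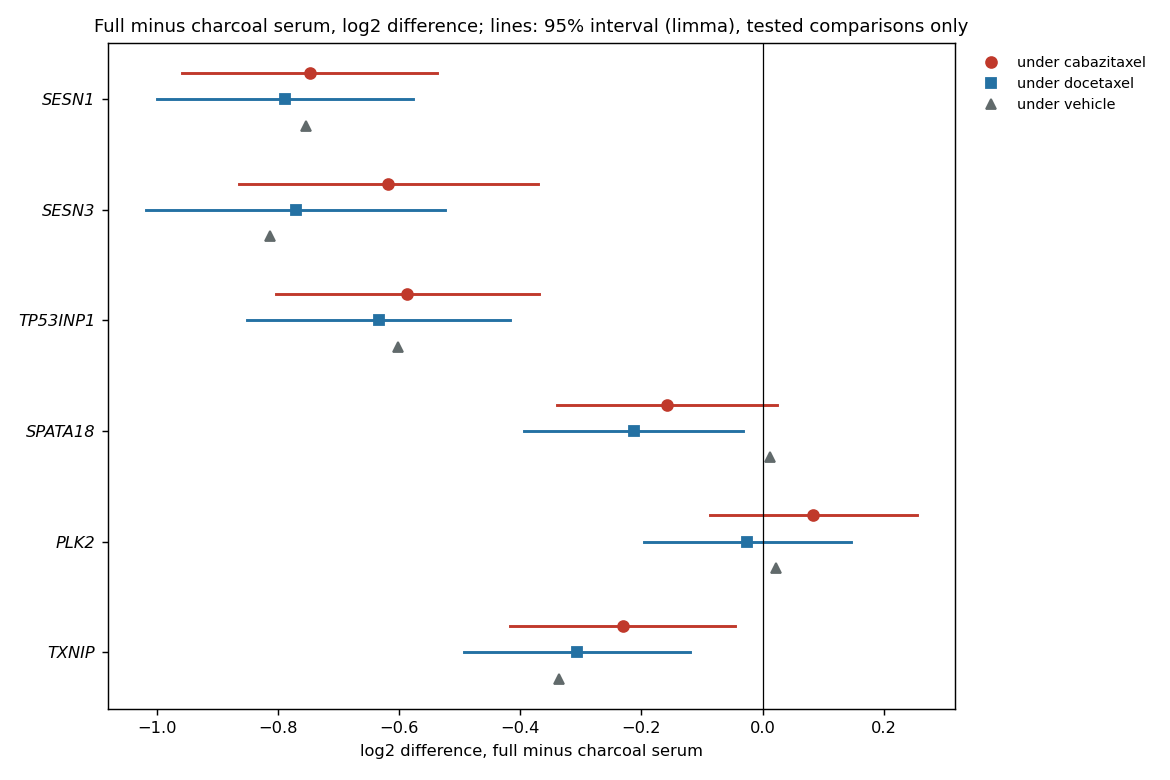
Log2 difference between full and charcoal serum (horizontal axis) for the 6 genes under cabazitaxel, docetaxel and vehicle; lines are 95% limma intervals of the tested comparisons, and the vehicle values, which were used to choose the genes, carry none. SESN1, SESN3 and TP53INP1 lie between -0.81 and -0.59 under all 3 treatments, and PLK2 lies near 0.

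In vehicle-treated cells, the values that the choice of genes rested on were as follows. SESN1 had intensities of 122 and 120 in full serum, against 201 and 207 in charcoal serum. SESN3 had 84.8 and 75.8 in full serum, against 132 and 150.4 in charcoal serum. TP53INP1 had 279 and 276 in full serum, against 384 and 462 in charcoal serum, so all 3 genes were separated by serum there too, as were 35.5% of all genes with 2 arrays against 2, with 20.4% lower in full serum. The log2 differences were -0.75 for SESN1, -0.81 for SESN3, -0.60 for TP53INP1 and -0.34 for TXNIP, while those of SPATA18 and PLK2 were 0.01 and 0.02. For SESN1, SESN3 and TP53INP1, all 6 full-serum arrays lay below all 6 charcoal arrays, a pattern that 1.43% of the tested genes had.

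By level, SESN1, SESN3 and TP53INP1 had all 3 full-serum groups below all 3 charcoal groups. The SESN1 group means were 7.11 ± 0.049, 7.13 ± 0.048 and 6.92 ± 0.021 in full serum with cabazitaxel, docetaxel and vehicle, and 7.85 ± 0.085, 7.92 ± 0.21 and 7.67 ± 0.034 in charcoal serum with the same 3 treatments (SD, n = 2 arrays each). Its 2 taxane groups overlapped within each serum, and the other neighbours in the order did not. For SESN3 the groups overlapped with their neighbours at every step of the order except the one between the sera, with 6.50 ± 0.12 in full serum with docetaxel and 7.11 ± 0.047 in charcoal serum with cabazitaxel. TP53INP1 was lowest in full serum with vehicle at 8.12 ± 0.014 and highest in charcoal serum with docetaxel at 9.05 ± 0.071.

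TXNIP had a more graded order. It was 7.85 ± 0.031, 7.88 ± 0.14 and 7.59 ± 0.032 in full serum with cabazitaxel, docetaxel and vehicle, and 8.08 ± 0.11, 8.19 ± 0.023 and 7.93 ± 0.038 in charcoal serum with the same 3 treatments (SD, n = 2 arrays each). A docetaxel array in full serum, at 252, exceeded both charcoal vehicle arrays, which had 248 and 239. For SPATA18 only charcoal serum with docetaxel, at 5.40 ± 0.014, stood apart from its neighbour, and the other 5 groups lay between 5.07 and 5.23. The highest PLK2 group was full serum with cabazitaxel at 5.57 ± 0.047, and both vehicle groups were lowest, at 5.38 ± 0.022 in full serum and 5.36 ± 0.097 in charcoal serum. Full serum with vehicle was the lowest group for 4 of the 6 genes, as for 22.3% of tested genes, and charcoal serum with docetaxel was the highest for 5 of the 6, as for 20.8%.

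The taxanes were set against vehicle within each serum, as a description, since both drugs' values were seen when the genes were picked. Both drugs were compared with the same vehicle arrays. No gene was called by limma for either drug in either serum or over both, 0% in each comparison. At an unadjusted p under 0.05 there were 520 genes (4.68%) for cabazitaxel and 672 (6.05%) for docetaxel over both sera, and the methods' t-test called 0 after adjustment, with 450 and 546 genes at an unadjusted p under 0.05.

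TP53INP1 lay above vehicle in each combination of drug and serum, by 0.32 for cabazitaxel and 0.30 for docetaxel in full serum. In charcoal serum they were 0.30 for cabazitaxel and 0.33 for docetaxel. In full serum its intensities were 345 and 347 with cabazitaxel and 338 and 345 with docetaxel, against 279 and 276 with vehicle. In charcoal serum they were 482 and 560.5 with cabazitaxel and 511 and 548 with docetaxel, against 384 and 462 with vehicle. All taxane arrays thus lay above the vehicle arrays of the same serum, as did those of 13.9% to 21.6% of all genes in each single comparison. SESN1, TXNIP and PLK2 had the same pattern in each combination of drug and serum.

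TXNIP differed from vehicle by 0.26 with cabazitaxel and by 0.29 with docetaxel in full serum, where the vehicle arrays had intensities of 190 and 196. In charcoal serum the differences were 0.15 with cabazitaxel and 0.26 with docetaxel. The second TXNIP cluster had smaller values, 0.09 for cabazitaxel and 0.15 for docetaxel as means of both sera. SESN1 differed by 0.19 with cabazitaxel and by 0.21 with docetaxel in full serum, and by 0.18 and 0.25 for the same drugs in charcoal serum. Its taxane arrays lay above the vehicle arrays of the same serum in every case, as did those of 13.9% to 21.6% of all genes in each single comparison. Yet all full-serum taxane arrays of SESN1 remained below the charcoal vehicle arrays.

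The SESN3 values were less even. In full serum it differed from vehicle by 0.17 with cabazitaxel and by 0.18 with docetaxel, and in charcoal serum by -0.03 with cabazitaxel and by 0.14 with docetaxel, with overlapping arrays for cabazitaxel in both sera and for docetaxel in charcoal serum. PLK2 differed by 0.19 with cabazitaxel and by 0.11 with docetaxel in full serum, and by 0.13 and 0.16 for the same drugs in charcoal serum. Its 4 cabazitaxel arrays, between 44.9 and 48.7, all lay above the 4 vehicle arrays, between 39.1 and 43.0 over both sera. That pattern was present in 1.22% of tested genes. SPATA18 differed by -0.03 with cabazitaxel and by 0.08 with docetaxel in full serum, and by 0.14 and 0.31 for the same drugs in charcoal serum. In charcoal serum its docetaxel arrays had intensities of 41.9 and 42.4, against 35.4 and 32.7 with vehicle, and the difference was 0.54 with the offset of 16 subtracted. Docetaxel was above vehicle in both sera for 6 of the 6 genes, as for 31% of tested genes, and cabazitaxel for 4 of the 6, as for 26.6%.

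**Figure D3:**
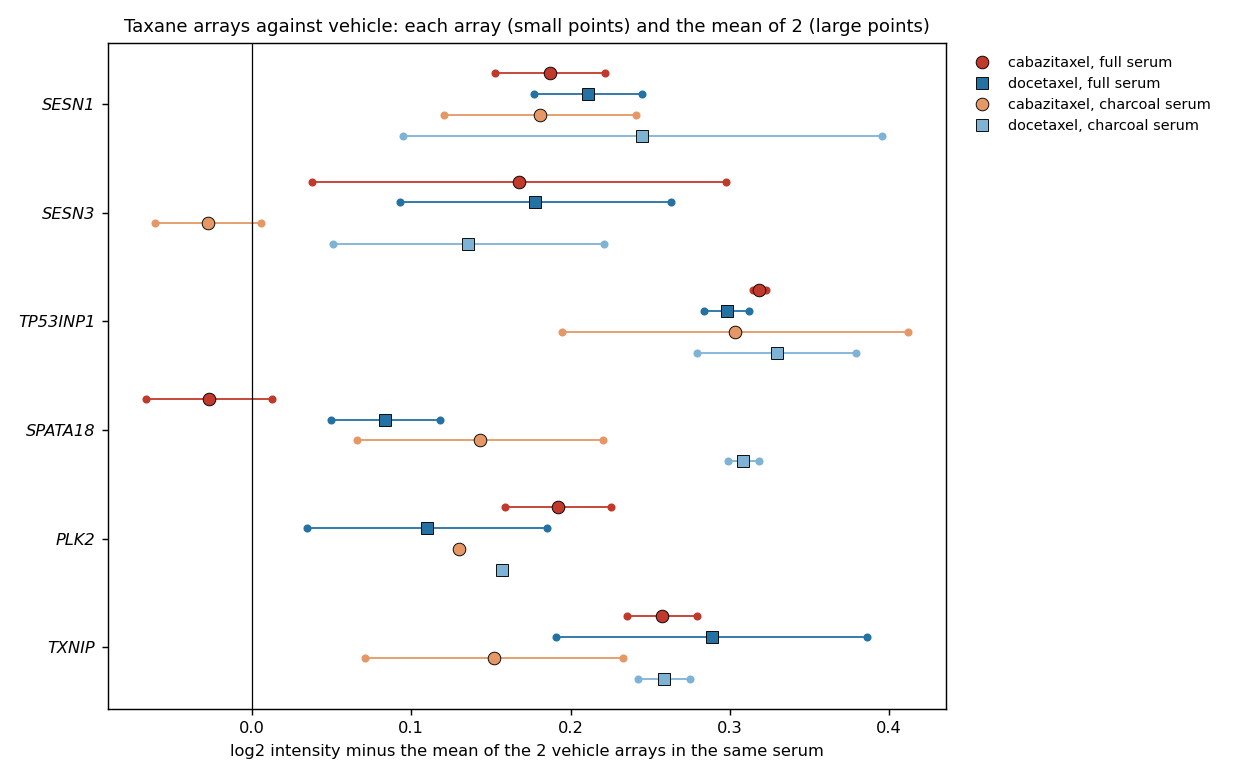
Log2 intensity of each taxane array minus the mean of the 2 vehicle arrays in the same serum (horizontal axis) for the 6 genes; small points are arrays and large points are means of 2. TP53INP1 lies near 0.3 in all 4 combinations of drug and serum, and SPATA18 differs most between them, from -0.03 to 0.31.

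Cabazitaxel and docetaxel, at the same dose and time, were compared with each other over both sera and within each serum, 3 comparisons in all. These differences follow from the comparisons with vehicle that were seen when the genes were picked. The member p-values and intervals are therefore not independent of that choice. Cabazitaxel minus docetaxel, as the mean of both sera, was -0.04 for SESN1 (95% interval -0.19 to 0.11, limma adjusted p 0.97). For SESN3 it was -0.09 (-0.26 to 0.09), for TP53INP1 -0.0028 (-0.16 to 0.15) and for PLK2 0.03 (-0.09 to 0.15), with limma adjusted p-values of 0.958, 0.999 and 0.975. TXNIP, which was picked for docetaxel, had -0.07 as a description. SPATA18 had the largest value, -0.14 (95% interval -0.27 to -0.0098), with an unadjusted p of 0.0372 and a limma adjusted p of 0.958. With an assumed offset of 16 subtracted it was -0.24 (adjusted p 0.962). Limma called 0 genes, 0% of all, with 506 (4.56%) at an unadjusted p under 0.05. The methods' t-test, which here too counted the serum difference as spread, called 0 with 500. In full serum alone the differences were -0.02 for SESN1 (95% interval -0.23 to 0.19), -0.01 for SESN3 (-0.26 to 0.24), 0.02 for TP53INP1 (-0.20 to 0.24), -0.11 for SPATA18 (-0.29 to 0.07) and 0.08 for PLK2 (-0.09 to 0.25). In charcoal serum they were -0.06 for SESN1 (-0.28 to 0.15), -0.16 for SESN3 (-0.41 to 0.08), -0.03 for TP53INP1 (-0.24 to 0.19), -0.17 for SPATA18 (-0.35 to 0.016) and -0.03 for PLK2 (-0.20 to 0.14). None of these passed, and limma called 0 genes in either serum, with 314 (2.83%) in full serum and 601 (5.41%) in charcoal serum at an unadjusted p under 0.05, while the methods' t-test called 0 with 455 and 554.

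Among the 6 genes, SESN1, SESN3 and TP53INP1 were most alike across the arrays. Over the 12 arrays SESN1 correlated with SESN3 at r = 0.97 and with TP53INP1 at r = 0.96, and SESN3 with TP53INP1 at r = 0.91. After each group's mean was removed, r was 0.58, 0.55 and 0.34 for these 3 pairs, lower for each pair than over all arrays. Among the other pairs it then ranged from -0.73 for SESN3 with SPATA18 to 0.60 for PLK2 with TXNIP. With 2 arrays per group, the 2 deviations of a group are equal and opposite, so these values rest on few points. With the group means kept, TXNIP correlated with TP53INP1 at r = 0.91 and with SESN1 at r = 0.88. PLK2 correlated with the others at r between -0.01 and 0.43. The points share arrays, serum and drug, and these are descriptions over 12 arrays.

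Among 256 other genes whose group means spanned at least 0.5 on the log2 scale, the patterns most like SESN1 over the 12 arrays were those of CDK8, a kinase of the Mediator complex (r = 0.98), USP54, of the ubiquitin-specific protease family (r = 0.97), and LASP1, an actin-binding protein (r = 0.96). SESN3 was nearest to USP54 (r = 0.96), CDK8 (r = 0.95) and NFKB1, a subunit of NF-kappaB (r = 0.95). TP53INP1 was nearest to the zinc finger gene MYNN (r = 0.97), CDK8 (r = 0.96) and PRKD1, protein kinase D1 (r = 0.94). TXNIP was nearest to PRKD1 (r = 0.91), CAMK2N1 (r = 0.89) and MYNN (r = 0.88). SPATA18 was nearest to SRGAP1 (r = 0.85), DENND1B (r = 0.83) and TAB3 (r = 0.81). Those nearest to PLK2 were the metallothionein MT1G (r = 0.63), MIR1227 (r = 0.61) and NBEAP1 (r = 0.57). In the taxane arrays CDK8 differed between the sera by -0.49 (limma adjusted p 0.000897), USP54 by -0.58 (0.000586) and LASP1 by -0.54 (0.000479).

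The wider gene lists around the 6 genes were described for the same serum difference. Of 22 tested p53 targets, out of 40 listed, 14 were lower and 8 higher in full serum under the taxanes, with a median of -0.02. Of all genes, 48.6% were lower. Limma called 0 of these p53 targets, where it called 1.07% of all genes. At an unadjusted limma p under 0.05 there were 0, where 10.2% of all genes were under it. The stress cytokine gene GDF15 differed by 0.15, the ribonucleotide reductase subunit RRM2B by -0.14, the ribosomal protein-like RPS27L by -0.11 and TP53INP2, the relative of TP53INP1, by 0.11, with limma adjusted p-values between 0.565 and 0.595.

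Of 13 tested FOXO targets, out of 26 listed, 9 were lower, where 48.6% of all genes were, and their median was -0.05. Of these 13, limma called 1, where 1.07% of all genes were called. At an unadjusted limma p under 0.05 there were 4, where 10.2% of all genes were under it. The called gene was CCNG2, the gene of cyclin G2, which slows the cell cycle. CCNG2 had intensities of 44.1 and 45.2 with cabazitaxel and 42.8 and 40.25 with docetaxel in full serum, against 56.8 and 55.7 with cabazitaxel and 58.8 and 60.7 with docetaxel in charcoal serum. Its arrays did not overlap between the sera, and the log2 difference was -0.43 (limma adjusted p 0.00868). The call was lost without charcoal docetaxel replicate 2 (adjusted p 0.0504) and without full docetaxel replicate 2 (adjusted p 0.0574). KLHL24 differed by -0.32 (limma adjusted p 0.13) and the catalase gene CAT by -0.27 (limma adjusted p 0.348).

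Sestrin partners, GATOR and mTORC1 genes gave 22 tested of 33 listed, with 13 higher, 9 lower, 0 called and 2 at an unadjusted p under 0.05, close to the 10.2% of all genes. MTOR, the kinase itself, differed by 0.23 (limma adjusted p 0.173), and RRAGD, a Rag GTPase that recruits it to lysosomes, by 0.24 (limma adjusted p 0.312). SESN2, the third sestrin, was weak, with intensities between 26.2 and 34.6 over the 12 arrays, and differed by -0.01 (limma adjusted p 0.989), with a sign that turned when 1 array was left out. Whether SESN2 differed less than SESN1 and SESN3 was not tested, and the floor of the values compresses differences at its level.

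Of 19 tested genes of the thioredoxin and arrestin-domain list, 1 was called, where 1.07% of all genes were. It was ARRDC3, an alpha-arrestin related to TXNIP. ARRDC3 had intensities of 117 and 108.5 with cabazitaxel and 120 and 134 with docetaxel in full serum, against 171 and 198.5 with cabazitaxel and 186 and 198 with docetaxel in charcoal serum. The sera did not overlap, and the log2 difference was -0.66 (limma adjusted p 0.000436). By the methods' t-test its adjusted p was 0.0511, so that test did not call it. ARRDC4, another alpha-arrestin and like TXNIP a MondoA target, differed by 0.06 (limma adjusted p 0.863), and TXN, the thioredoxin that TXNIP binds, by 0.01 (limma adjusted p 0.987), with a sign that turned after quantile normalization.

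The other lists held no call, where 1.07% of all genes were called. Of 16 tested autophagy and mitophagy genes 8 were higher and 8 lower, and the mitophagy receptor gene BNIP3L differed by -0.15 (limma adjusted p 0.349). Of 11 tested genes of the ATF4 stress response 4 were higher and 7 lower, where 48.6% of all genes were lower. The other polo-like kinases differed by 0.12 for PLK1, 0.04 for PLK3 and -0.02 for PLK4. Among 7 tested regulators, FOXO1 differed by 0.27 (limma adjusted p 0.364) and FOXO3 by -0.09, whose sign turned when 1 array was left out. Under docetaxel, compared with vehicle over both sera, 17 of 22 p53 targets and 11 of 13 FOXO targets were higher, where 55% of all genes were, with medians of 0.03 and 0.04 and 0 called. Under cabazitaxel these counts were 14 of 22 and 9 of 13, where 51.1% of all genes were higher, again with 0 called.

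**Figure D4:**
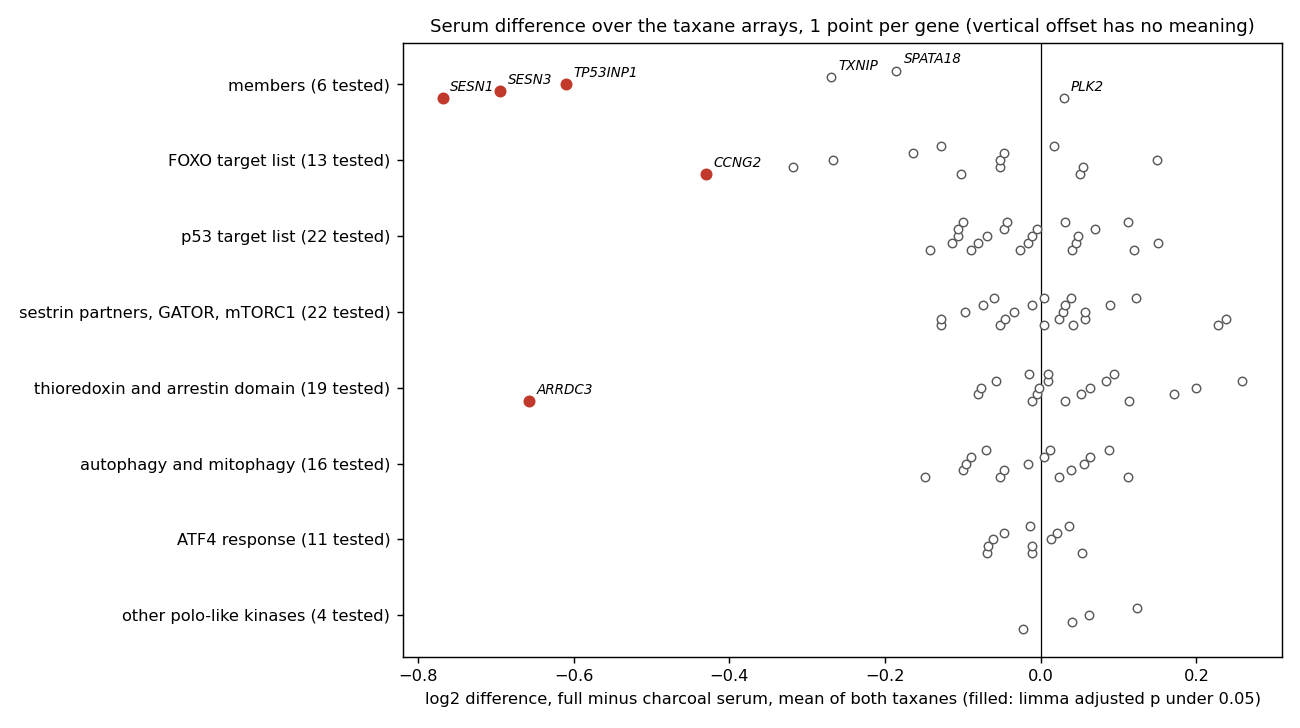
Log2 difference between full and charcoal serum over the 8 taxane arrays (horizontal axis) for the 6 genes and for the tested genes of 7 lists; each point is a gene, filled where limma called it, and the vertical spread has no meaning. SESN1 and SESN3 lie left of all listed genes, TP53INP1 lies right of ARRDC3 (-0.66), and CCNG2 lies at -0.43.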

How the data were processed

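The deposited values are intensities per transcript cluster. RMA normalization by the authors is named in the submitters' processing notes, with no version. The values are linear, from 17.3 to 6307, and array medians ranged from 22.19 to 22.43. The log2 of each deposited value was taken here. Platform annotation gave 15835 of 44629 transcript clusters 1 symbol, and the cluster with the highest mean was used per gene. A gene entered the tests if 2 or more arrays exceeded the overall median, which 11105 did. A single limma fit (version 3.58.1, R 4.3.3) of the 6 group means over all 12 arrays gave every comparison. P-values are two-sided and adjusted by the Benjamini-Hochberg method over all genes in each of 14 comparisons. Calls needed an adjusted p under 0.05. The fit was tested on simulated data. The members and gene lists were chosen with earlier results of these data known. Besides the 6 genes, the text names listed genes by smallest p and, per gene, up to 3 with the highest correlation over the 12 arrays. Relatives of the 6 genes are named whatever their values. The alternatives were an assumed offset of 16 subtracted before the log2, no filter, a stricter filter, every transcript cluster, quantile normalization, a mean-variance trend, the taxane arrays alone, a replicate block, the methods' t-test and leaving out each array. The methods' t-test pooled all arrays on each side of a comparison, without separating the sera or the drugs within a side. The number of arrays limits the precision. Names of array genes are those of the platform annotation, and the build behind it is not given in the sources used here.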

Additional observations from a re-analysis of the deposited data

How the results depend on the processing

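The lower level of SESN1, SESN3 and TP53INP1 in full serum under the taxanes kept its direction in every setting tried. All 3 were called in each fit that left out 1 array, with adjusted p between 0.000105 and 0.00253 for SESN1, between 0.00173 and 0.0104 for SESN3 and between 0.001 and 0.0108 for TP53INP1, while the methods' t-test called 2 of the 3. Of 876 recomputed member values of the tested comparisons, 795 kept their direction and side of the threshold, 53 lost the call, 1 gained it and 27 turned their sign. Many of these could hardly change. Leaving out an array outside a comparison leaves its difference as it was, and values far from the threshold stay uncalled. The tally is therefore no measure of how firm the calls are. Values near the floor are compressed, and the size of any offset in the deposited values is unknown, which limits SPATA18 and PLK2 most.

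Over the taxane arrays, 119 genes were called between the sera, against 62 with the offset of 16 subtracted, 190 with the replicate block, 38 by the methods' t-test and 62 to 130 with 1 array left out. The lowest counts came without charcoal docetaxel replicate 2 (62), full docetaxel replicate 2 (64), full cabazitaxel replicate 1 (69), full cabazitaxel replicate 2 (71) and full docetaxel replicate 1 (73). Under cabazitaxel, 44 genes and 3 members were called, against 10 and 0 with the offset, 25 and 1 with no filter, 2 and 0 by the t-test, and 9 to 43 genes and 0 to 2 members with 1 array left out. Under docetaxel, 35 genes and 3 members were called, against 9 and 0 with the offset, 22 and 1 with no filter, 0 and 0 by the t-test (with 778 genes at an unadjusted p under 0.05), 62 genes with the block, and 7 to 39 genes and 0 to 3 members with 1 array left out. In vehicle-treated cells 44 genes were called, against 16 with the offset, 70 with the block, 0 by the t-test (with 621 at an unadjusted p under 0.05) and 7 to 46 with 1 array left out. The cause of these shifts was not tested. In 126 fits of a drug against vehicle and in 87 fits of the drugs against each other or of the interaction, 0 called a gene.

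The labels do not say that a replicate number marks a shared batch, and the arrays did not settle it. Deviations of same-numbered arrays from the group means correlated between -0.049 and 0.33 over 15 pairs of groups (median 0.15), positive in 14 and above 0.1 in 10. As not every pair exceeded 0.1, the replicate block is given as an alternative. With it, the same 3 members stayed called over the taxane arrays.

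The following values turned their sign. With quantile normalization, cabazitaxel minus docetaxel became 0.0303 for TP53INP1 over both sera, 0.0034 for SESN1 and 0.023 for SESN3 in full serum, and 0.0073 for TP53INP1 and 0.00033 for PLK2 in charcoal serum, and the serum difference of TXN became -0.0074. With 1 array left out, the serum difference ranged from -0.0083 to 0.067 for PLK2 over the taxane arrays and from -0.10 to 0.0502 under docetaxel. It ranged from -0.064 to 0.042 for SESN2, -0.042 to 0.061 for TXN, -0.19 to 0.016 for FOXO3, -0.15 to 0.014 for ATF3, -0.11 to 0.068 for PLK4, -0.016 to 0.055 for THY1 and -0.17 to 0.26 for NBEAP1. Cabazitaxel minus docetaxel over both sera ranged from -0.12 to 0.031 for SESN1, -0.057 to 0.052 for TP53INP1 and -0.010 to 0.065 for PLK2. In full serum it ranged from -0.058 to 0.011 for SESN1, -0.14 to 0.12 for SESN3 and -0.13 to 0.066 for TXNIP, and in charcoal serum from -0.21 to 0.086 for SESN1 and -0.13 to 0.083 for TP53INP1. The interaction ranged from -0.11 to 0.19 for SESN1, -0.062 to 0.16 for TP53INP1, -0.023 to 0.13 for SPATA18 and -0.022 to 0.17 for TXNIP.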
